A study of Mus musculus with 4 samples.

Results

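The 44 mouse collagen genes were examined across the cells of colon tumours. They are all the gene symbols of the deposited matrix made of "Col", a number, "a" and a number, from Col1a1 to Col28a1, 44 of 31053 genes. The tumours came from female C57BL/6 mice given azoxymethane, a carcinogen (12.5 mg/kg), and then 3 cycles of 5 days of dextran sulphate sodium, a colitis agent, in the drinking water (2.5%, 2.5% and 2%), with collection 30 days after it ended. There were 4 labelled samples, 1 per group: CD45+ immune and CD45- non-immune cells of EgfrΔMYL mice, in which Egfr is deleted in the myeloid lineage, and CD45+ and CD45- cells of Egfr fl/fl control mice. The sources used here do not name what drives the deletion. All 4 groups had the same tumour induction, and polyps were digested with collagenase before sorting by antibodies to CD45 and EPCAM. The counts form 1 matrix of 18026 cell barcodes in 4 libraries, and no source used here pairs a library with a sample, so neither genotypes nor sorts were compared, each library's value stands on its own, and there is no replicate and no p-value.

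Collagens are the triple-helical proteins of the extracellular matrix, each assembled from 3 chains that are the products of 1 or more genes. Fibrillar types (I, II, III, V, XI) form the fibres of connective tissue, type IV forms the sheet of basement membranes under epithelium and around vessels, type VI forms fine beaded filaments, and fibril-associated types (IX, XII, XIV, XVI) sit on the surface of fibrils. In the gut wall, fibroblasts are the textbook makers of fibrillar collagen, and vessels and epithelium are known to contribute to basement membranes.

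Cells were assigned to 16 types by lists of 8 marker genes that held no collagen. The values are UMIs, tags of single molecules captured at the 3′ end of polyadenylated RNA, so they carry no length term, and a level is the UMIs of a gene scaled to 1000000 UMIs of the type (CPM) with its exact 95% Poisson interval, which covers counting error only. Of the 18026 barcodes 14198 were kept and 11388 assigned: 11 fibroblasts, 10 mural or smooth muscle cells, 37 endothelial cells, 2 glial cells, 1615 epithelial cells, 1821 macrophages, 2753 neutrophils, 311 dendritic cells, 110 plasmacytoid dendritic cells, 2523 T cells, 81 NK cells, 1488 B cells, 451 plasma cells, 67 mast cells, 60 basophils and 48 erythroid cells. Every fibroblast, mural, endothelial and glial cell was in library 1 or 2, as were 369 and 1169 of the epithelial cells, whereas 467 and 1340 of the macrophages were in libraries 3 and 4, so type and library go together and cannot be told apart for pairs of types that share no library. The check of the stromal types against their markers was mixed. The fibroblasts had all 8 fibroblast markers and none of the 8 endothelial ones, the endothelial cells all 8 of theirs and 1 of 8 macrophage markers, and neither had a UMI of Ptprc, the gene of CD45. However, mural markers summed to 6295 CPM in the fibroblasts, above the 5325 CPM of their own list, though per cell the mural list had a median of 3 UMIs (0 to 432) and their own 32 (8 to 99). Macrophage markers summed to 497 CPM (1 of 8 markers). Endothelial cells had 8148 CPM of their own list, 158 CPM of the fibroblast list (2 of 8 markers, at most 11 UMIs in a cell) and 120 CPM of the mural list (3 of 8 markers, at most 20). In the mural cells the mural list summed to 20760 CPM, and the fibroblast and endothelial lists to 501 CPM each (2 and 3 of 8 markers). The part of these markers in the comparison of fibroblasts with mural cells was not tested. The kept cells of libraries 1 to 4 numbered 594, 1706, 4516 and 7382, with medians of 4507, 3390.5, 4932.5 and 5177 UMIs; 24 barcode sequences occurred in more than 1 library, and none of these were fibroblasts, mural or endothelial cells.

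The assigned cells held 7716 collagen UMIs. The 11 fibroblasts, 0.0966% of these cells, held 2101 of them (27.2%), and collagens made up 2.49% of all fibroblast UMIs. Collagens took 1.79% of the UMIs of mural cells, 0.547% in glial cells, 0.426% in endothelial cells, 0.0127% in epithelial cells and 0.00648% in macrophages. No collagen UMI was counted in the 48 erythroid cells, which allows up to 4.51 CPM. Epithelial cells and macrophages, with far more cells, held 28.4% and 20.9% of the collagen UMIs, so the type with the highest level of a gene and the type with most of its UMIs often differed. Of the 44 genes, 31 had at least 10 UMIs in assigned cells, 10 had between 1 and 9, and 3 had none in any barcode (Col19a1, Col4a3 and Col6a6).

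**Figure D1:**
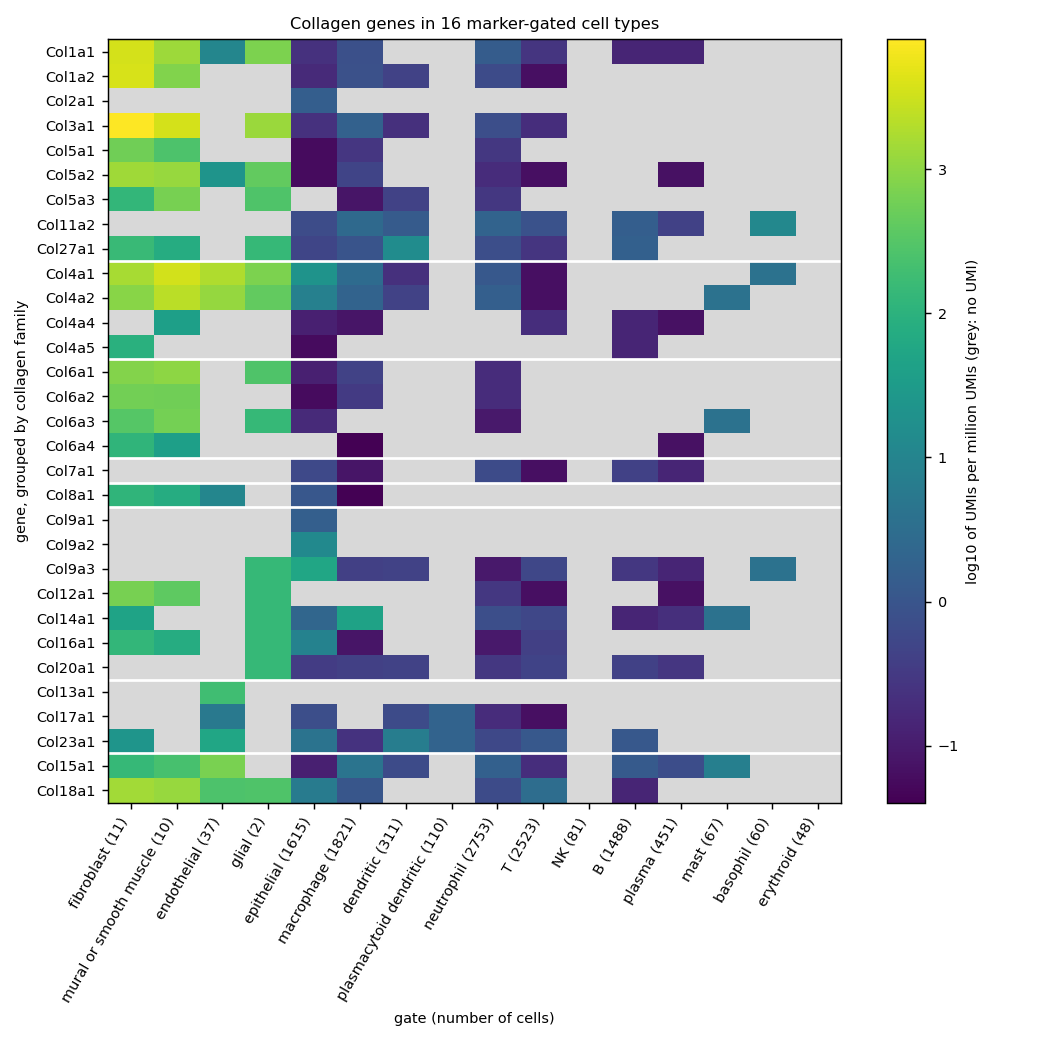
Levels of the 31 collagen genes with at least 10 UMIs (rows, grouped by family) in the 16 cell types (columns, number of cells in parentheses), as the log10 of CPM, with grey where no UMI was counted. The genes of types I, III, V and VI are highest in the first 2 columns, fibroblasts and mural or smooth muscle cells, Col13a1 is seen only in endothelial cells, and Col2a1, Col9a1 and Col9a2 only in epithelial cells.

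A gene was given a main source when its highest level among types of at least 20 cells was at least 2-fold above the next type. Under that rule 23 of the 31 genes (74.2%) had a main source, against 36.5% of the 17128 genes with at least 10 UMIs. These were 10 in endothelial cells (32.3%, against 7.43% of all genes), 5 in epithelial cells (16.1%, against 11.8%), 3 in macrophages (9.68%, against 1.87%: Col3a1, Col6a1 and Col14a1), and 1 each in dendritic cells (Col27a1, 1.34% of all genes), neutrophils (Col12a1, 2.07%), B cells (Col4a5, 1.12%), mast cells (Col6a3, 1.41%) and basophils (Col11a2, 1.89%). The calls in neutrophils, B cells, mast cells and basophils rest on 3, 1, 1 and 3 UMIs, and 4 of the endothelial ones on 4 (Col5a2), 2 (Col1a1), 2 (Col8a1) and 1 UMI (Col17a1). With the interval of the ratio above 1 as well, 13 genes were left (41.9%, against 24.1% of all genes). Without library 2, in which 26 of the 37 endothelial cells lay, that type fell under the limit and 15 genes had a main source, none of them in endothelial cells. The rule leaves out fibroblasts and mural cells, which were fewer. With types of at least 10 cells, a limit chosen after the cell numbers were known, 17 of 31 genes (54.8%) had a main source, against 38.4% of all genes: 6 in fibroblasts (19.4%, against 4.92% of all genes), 4 in endothelial cells (12.9%, against 3.81%), 4 in epithelial cells (12.9%, against 9.27%), 2 in mural cells (6.45%, against 5.8%) and 1 in basophils (3.23%, against 1.58%, from 3 UMIs of Col11a2). Macrophages were the main source of none, against 1.33% of all genes. Of the 3 above, Col3a1 and Col6a1 were higher in fibroblasts and mural cells. Col14a1 could not be ordered between fibroblasts, with 4 UMIs, and macrophages (1.06-fold, 0.290 to 2.73). The shares in mural, epithelial and basophil cells are near those of all genes. Of the 2 mural calls, that of Col5a3 rests on 17 UMIs and that of Col4a4 on 1 UMI, 192-fold (3.66 to 2396) above the 3 UMIs of T cells. Taking only ratios whose counting interval lay above 1, the number was 9 of 31 (29.0%, against 20.0% of all genes), and Col4a4 with its 1 mural UMI was among them. Without library 1 or without library 2, fibroblasts or mural cells fall under 10 cells and no gene has fibroblasts as its main source. The 2 limits give different answers for the fibrillar genes, and the levels below therefore include fibroblasts and mural cells. The 2 glial cells, under both limits, held 9 UMIs of Col3a1, 5 of Col1a1, 3 of Col5a2 and 2 of Col5a3.

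The promoters of 5 genes, 1 or more per source, are shown because these genes had their highest level in different cells: Col3a1 in fibroblasts, Col5a3 in mural cells, Col13a1 and Col15a1 in endothelial cells and Col9a1 in epithelial cells. Each line is the 250 bases before the RefSeq transcript start (build GRCm38.p6), 5′ to 3′ on the gene's strand, free of annotated exons (GENCODE M21), with capitals marking a match on either strand to the TATA box (TATAAA), the CCAAT box, the GC box (GGGCGG) or the core to which the TCF/LEF factors of the Wnt pathway bind (CTTTGAT). For Col15a1 the RefSeq start, 47208012, lies upstream of the gene start in GENCODE.
Col3a1, chr1:45311288-45311537, plus strand: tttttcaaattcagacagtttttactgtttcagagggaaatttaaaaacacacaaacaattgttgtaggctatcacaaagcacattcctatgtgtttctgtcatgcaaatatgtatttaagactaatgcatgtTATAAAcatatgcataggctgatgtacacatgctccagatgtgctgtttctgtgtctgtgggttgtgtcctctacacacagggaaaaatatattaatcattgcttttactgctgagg
Col5a3, chr9:20815068-20815317, minus strand: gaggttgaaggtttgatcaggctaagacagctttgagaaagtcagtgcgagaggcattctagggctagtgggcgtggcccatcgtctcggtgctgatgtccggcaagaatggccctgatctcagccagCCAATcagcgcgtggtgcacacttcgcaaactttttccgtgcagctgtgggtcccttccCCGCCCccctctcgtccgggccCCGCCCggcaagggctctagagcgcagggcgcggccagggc
Col13a1, chr10:61979109-61979358, minus strand: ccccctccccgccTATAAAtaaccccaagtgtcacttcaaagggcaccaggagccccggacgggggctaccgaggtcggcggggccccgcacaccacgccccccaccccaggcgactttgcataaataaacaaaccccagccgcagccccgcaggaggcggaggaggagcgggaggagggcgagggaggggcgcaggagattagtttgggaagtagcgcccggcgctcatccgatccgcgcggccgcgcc
Col15a1, chr4:47207762-47208011, plus strand: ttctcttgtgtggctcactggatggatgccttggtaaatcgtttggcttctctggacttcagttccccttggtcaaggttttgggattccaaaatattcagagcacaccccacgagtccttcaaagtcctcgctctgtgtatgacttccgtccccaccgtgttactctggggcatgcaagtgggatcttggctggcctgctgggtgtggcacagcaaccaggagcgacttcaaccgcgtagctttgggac
Col9a1, chr1:24177360-24177609, plus strand: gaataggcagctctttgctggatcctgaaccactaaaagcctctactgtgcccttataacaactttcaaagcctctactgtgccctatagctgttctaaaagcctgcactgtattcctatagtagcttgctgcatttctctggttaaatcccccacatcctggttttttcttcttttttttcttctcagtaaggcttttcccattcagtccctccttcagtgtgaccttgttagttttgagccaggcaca
Among the printed windows, the TATA box began 117 bases before the start of Col3a1 and 237 bases before that of Col13a1, the Col5a3 window held a CCAAT box 122 bases before the start and GC boxes on the other strand 63 and 41 bases before it, and the Col15a1 and Col9a1 windows held none of the 4 motifs. The next counts use the whole 250 bases before each RefSeq start, annotated exons included, for collagen genes and for all genes alike. Across the 38 collagen windows in the table, the TATA box stood in 5 (13.2%, against 12.4% of all 32851 windows of this length), the CCAAT box in 13 (34.2%, against 33.8%), the TCF/LEF core in 1 (2.63%, against 3.21%) and the GC box in 22 (57.9%, against 32.7%). The window with the TCF/LEF core was that of Col9a2, where the match lies in an annotated exon. The table had no entry for Col9a3, Col1a1, Col14a1, Col2a1, Col5a2, Col12a1, Col4a3, Col22a1 and Col26a1.

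The genes of the interstitial fibrils, Col3a1, Col1a1 and Col1a2, were highest in fibroblasts. Col3a1, the chain of type III collagen that forms the fine reticular fibres of the gut wall (chromosome 1, 45311538 to 45349706, plus strand, annotation GENCODE M21), had 162, 22, 137, 35 and 82 UMIs in the 5 fibroblasts of library 1 and 16, 13, 19, 98, 15 and 72 in the 6 of library 2. In the 10 mural cells it had 33, 5, 1, 6, 12, 23, 4, 0, 6 and 6 UMIs. Every fibroblast held it, with a median of 35 UMIs per cell, and the lower fibroblasts overlapped with the higher mural cells. Its level was 7940 CPM (7351 to 8565) in fibroblasts and 3697 CPM (2995 to 4515) in mural cells, 2.15-fold (1.73 to 2.69), and it was the fifth most abundant of all genes in the fibroblasts, at rank 5 of 31053. None of the 37 endothelial cells had a Col3a1 UMI, which allows up to 16.4 CPM.

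Col1a1 and Col1a2 encode the α1 and α2 chains of type I collagen, the main protein of scar and tendon. Col1a1 (chromosome 11, 94936224 to 94953042, plus strand) had 96, 5, 50, 20, 32, 4, 8, 21, 33, 7 and 29 UMIs in the 11 fibroblasts, and between 0 and 11 in the mural cells. Col1a2 (chromosome 6, 4504814 to 4541544, plus strand) had 102, 6, 41, 22, 57, 6, 3, 15, 29, 13 and 33 UMIs in the same fibroblasts. Both genes were thus present in each of the 11. Col1a1 stood at 3609 CPM (3216 to 4038) in fibroblasts against 1310 CPM (907 to 1830) in mural cells, 2.76-fold (1.93 to 4.05). Col1a2 stood at 3870 CPM (3462 to 4313) in fibroblasts against 770 CPM (471 to 1190) in mural cells, 5.02-fold (3.20 to 8.33). Of all assigned UMIs of each gene, fibroblasts held 80.2% for Col3a1, 77.8% for Col1a1 and 85.8% for Col1a2.

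**Figure D2:**
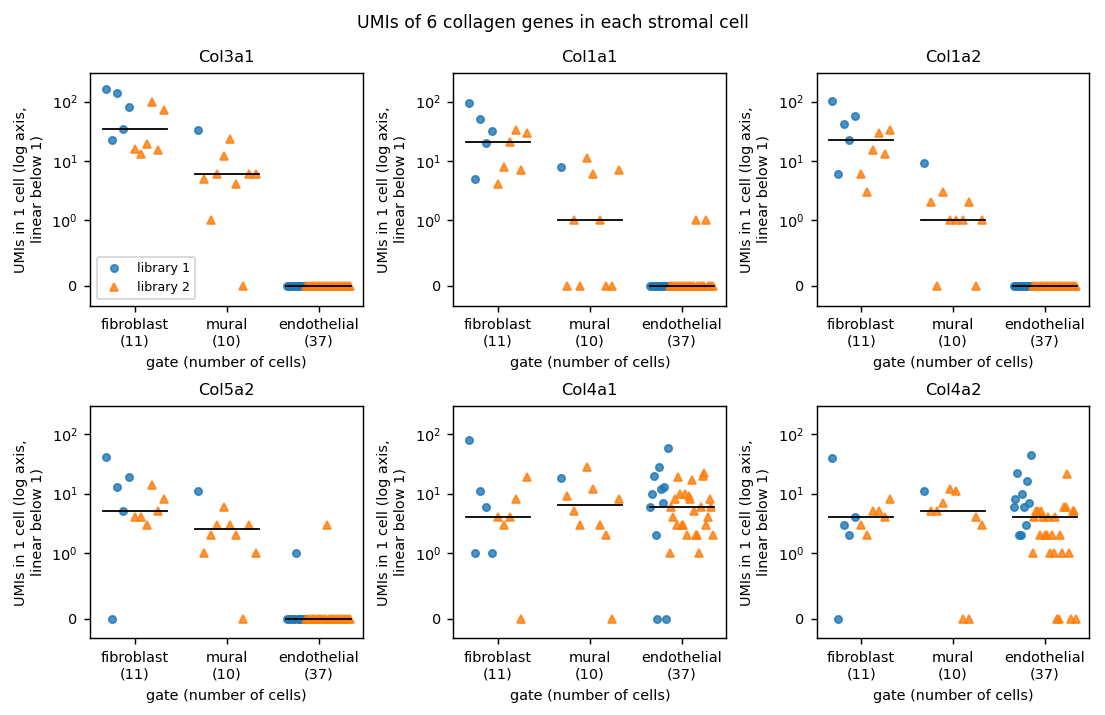
UMIs of 6 collagen genes in each fibroblast, mural and endothelial cell (points, 1 per cell, circles for library 1 and triangles for library 2, log axis that is linear below 1), with the median of each type as a line. Col3a1, Col1a1 and Col1a2 are present in all 11 fibroblasts and Col3a1 and Col1a2 in none of the 37 endothelial cells, whereas Col4a1 and Col4a2 are found in all 3 types.

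The minor fibrillar chains followed. Col5a2 and Col5a1, chains of type V collagen, which is known to set the diameter of type I fibrils, had 117 and 47 UMIs in fibroblasts. Col5a2 was at 1385 CPM (1145 to 1659) in fibroblasts against 1232 CPM (843 to 1740) in mural cells, 1.12-fold (0.754 to 1.72), so neither was its main source. Col5a1 was at 556 CPM (409 to 740) in fibroblasts against 270 CPM (108 to 555) in mural cells, 2.06-fold with an interval of 0.927 to 5.41 that includes 1. The third chain, Col5a3, ran the other way: the 10 mural cells held 17 UMIs, 10 of them in 1 cell, at 655 CPM (381 to 1048), against 130 CPM (65.0 to 233) in fibroblasts, 5.03-fold (2.22 to 11.9). Among the UMIs of the 3 type V genes Col5a3 made up 30.4% (18.8 to 44.1) in mural cells and 6.29% (3.18 to 10.97) in fibroblasts. Col12a1, a fibril-associated chain of dense connective tissue, had 56 UMIs in fibroblasts, at 663 CPM (501 to 861), against 385 CPM (185 to 708) in mural cells, 1.72-fold (0.870 to 3.78).

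Type VI genes were shared by fibroblasts and mural cells. Col6a1 had 71 UMIs in fibroblasts (840 CPM, 656 to 1060) against 26 in mural cells (1001 CPM, 654 to 1467). Col6a2 was at 592 CPM (439 to 780) in fibroblasts against 578 CPM (323 to 953) in mural cells. Col6a3 was at 320 CPM (211 to 465) in fibroblasts against 616 CPM (352 to 1001) in mural cells. Their intervals overlapped and none had a main source, and no endothelial cell had a UMI of any of the 3. Col6a4, a later-described α chain of type VI, had 10 UMIs in fibroblasts (118 CPM, 56.7 to 218) and 1 in mural cells. Col6a5 had 4 UMIs in fibroblasts and 1 in macrophages.

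Of the genes with fewer UMIs, Col4a5 (a basement membrane chain) had 8 of its 10 UMIs in 3 fibroblasts. Col8a1, a short chain of the network around vessels, had 10 UMIs in fibroblasts, 9 of them in 1 cell, 2 in mural cells, 2 in endothelial cells and 19 in epithelial cells, at 118 CPM in fibroblasts and 1.10 CPM in epithelial cells. Genes with 1 to 9 assigned UMIs were Col10a1 (2), Col11a1 (1), Col22a1 (6), Col24a1 (1), Col25a1 (4), Col26a1 (7), Col28a1 (4), Col4a6 (2), Col6a5 (5) and Col8a2 (4). Of Col22a1, 3 UMIs lay in 1 fibroblast, and both UMIs of Col4a6 lay in fibroblasts.

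A single fibroblast weighed heavily on these levels. It held 37130 UMIs, 43.9% of all UMIs of the 11, with 432 UMIs of mural markers, 259 of them Acta2 (smooth muscle actin), and 23 of macrophage markers; over the 11 cells mural marker UMIs ranged from 0 to 432 with 4 of the 8 markers at 0 (Rgs5, Notch3, Des and Cnn1). Their part in the levels was not tested. Without it Col3a1 was at 10744 CPM in fibroblasts, Col1a1 at 4412 and Col1a2 at 4749, and 7 genes had fibroblasts as their main source.

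The proportions of the 3 interstitial genes, in the plot of partner chains, had close values in fibroblasts and macrophages. Mural cells differed from fibroblasts in the shares of Col3a1 and Col1a2. Col3a1 made up 51.5% (48.7 to 54.2) of the UMIs of Col3a1, Col1a1 and Col1a2 in fibroblasts, Col1a1 23.4% and Col1a2 25.1%. In mural cells Col3a1 took a larger part, 64.0% (55.8 to 71.7), and Col1a2 a smaller one, 13.3% (8.34 to 19.8). In macrophages the shares were 52.3% (41.3 to 63.2), 23.3% (14.8 to 33.6) and 24.4% (15.8 to 34.9), from 86 UMIs, with intervals that hold the fibroblast values. These intervals also overlap those of mural cells. In neutrophils Col3a1 took 26.7% (12.3 to 45.9) of 30 UMIs.

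**Figure D3:**
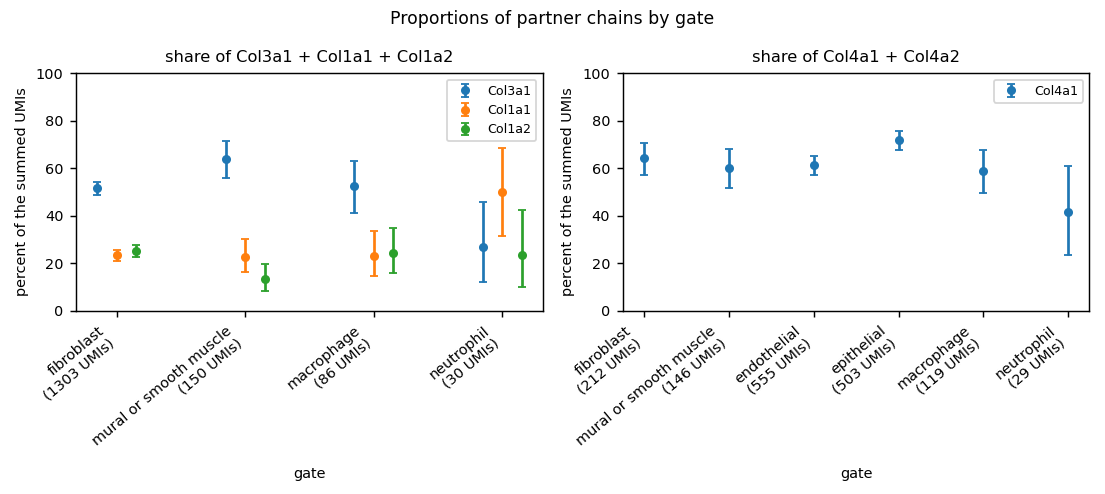
Share of each gene in the summed UMIs of its partners by cell type, for type III and type I genes (left) and for Col4a1 among Col4a1 and Col4a2 (right), with exact 95% binomial intervals and the number of UMIs under each type. The 3 shares in macrophages lie at those of fibroblasts, with intervals that also overlap those of mural cells. The Col4a1 interval lies above 50% in fibroblasts, mural, endothelial and epithelial cells.

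In leukocytes the interstitial genes were rare. Macrophages had 45 UMIs of Col3a1 (1.81 CPM, 1.32 to 2.42), 20 of Col1a1 and 21 of Col1a2, with at most 4 Col3a1 UMIs in a cell. Col3a1 UMIs were seen in 39 of 1821 macrophages (2.14%, median depth 12340 UMIs), in 3 of 2523 T cells (0.119%, median 4996) and in 0 of 451 plasma cells, the deepest type (median 32399), which allows a share of up to 0.665%. The CPM of macrophages was 9.04-fold (2.90 to 45.5) that of T cells. After thinning to 1000 UMIs per cell the shares were 0.169% (3 of 1776 cells, 45 left out) in macrophages and 0.0804% (2 of 2488, 35 left out) in T cells, too few to order. The part of free RNA in these UMIs was not tested.

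Type IV genes were found in stromal, endothelial and epithelial cells. Col4a1 and Col4a2, the chains of the common basement membrane network, lie head to head on chromosome 8 (11198423 to 11312826, minus strand, and 11312805 to 11449287, plus strand) with 22 overlapping bases at their starts, so the strand of a read decides between them there. Col4a1 had a median of 6 UMIs per endothelial cell (0 to 58, present in 35 of 37) and Col4a2 a median of 4 (0 to 44, present in 33 of 37). In the 10 mural cells Col4a1 had 18, 9, 5, 3, 28, 12, 3, 2, 0 and 8 UMIs, within the endothelial range. Col4a1 stood at 3389 CPM (2718 to 4176) in mural cells, 1857 (1665 to 2065) in endothelial cells, 1609 (1350 to 1904) in fibroblasts and 20.9 (18.8 to 23.2) in epithelial cells. Col4a2 followed the same order, at 2234 CPM (1696 to 2888) in mural, 1174 (1022 to 1342) in endothelial, 899 (709 to 1126) in fibroblast and 8.24 (6.94 to 9.71) in epithelial cells. With all 11 fibroblasts, the intervals of endothelial cells and fibroblasts overlapped for both genes. The fibroblast with 37130 UMIs held 79 of the Col4a1 and 40 of the Col4a2 UMIs of its type. Without it fibroblasts were at 1203 CPM for Col4a1 and 760 CPM for Col4a2, both under the endothelial intervals. Mural over endothelial levels were 1.83-fold (1.43 to 2.31) and 1.90-fold (1.40 to 2.55), under the limit of 2, so neither gene had a main source once mural cells counted; among types of at least 20 cells both had endothelial cells, 88.7-fold (76.2 to 103) and 143-fold (115 to 177) above epithelial cells.

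By UMIs the picture was flatter, since epithelial cells held 361 Col4a1 UMIs (35.6%) and endothelial cells 340 (33.5%). The epithelial level differed between libraries, at 26.3 CPM (23.5 to 29.4, 313 UMIs) in library 2 and 8.84 CPM (6.40 to 11.9, 43 UMIs) in library 1, and the fold and the share pool the libraries. Pooled over libraries, the 2 partner genes had proportions with overlapping intervals: Col4a1 was 61.3% (57.1 to 65.3) of their UMIs in endothelial cells, 60.3% (51.9 to 68.3) in mural cells, 64.2% (57.3 to 70.6) in fibroblasts and 58.8% (49.4 to 67.8) in macrophages. In epithelial cells it was 71.8% (67.6 to 75.7), a pooled value of which 419 of 503 UMIs came from library 2. Within library 1 it was 57.3% (45.4 to 68.7) in epithelial and 55.3% (49.3 to 61.2) in endothelial cells. Within library 2 it was 74.7% (70.3 to 78.8) in epithelial and 67.4% (61.5 to 72.9) in endothelial cells. The intervals of the 2 types overlapped in each library, which does not show that their proportions were equal. Between the 2 libraries the endothelial intervals did not overlap. Among endothelial cells library 2 had the higher Col4a1 level, 2590 CPM (2229 to 2992) in its 26 cells, and library 1 had 1392 CPM (1182 to 1628) in its 11. Col4a2 did not differ in this way, with 1253 CPM (1006 to 1542) in library 2 and 1124 CPM (937 to 1339) in library 1. The 10 UMIs of Col4a4 were spread over 6 types, and its main source in mural cells rests on 1 UMI.

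**Figure D4:**
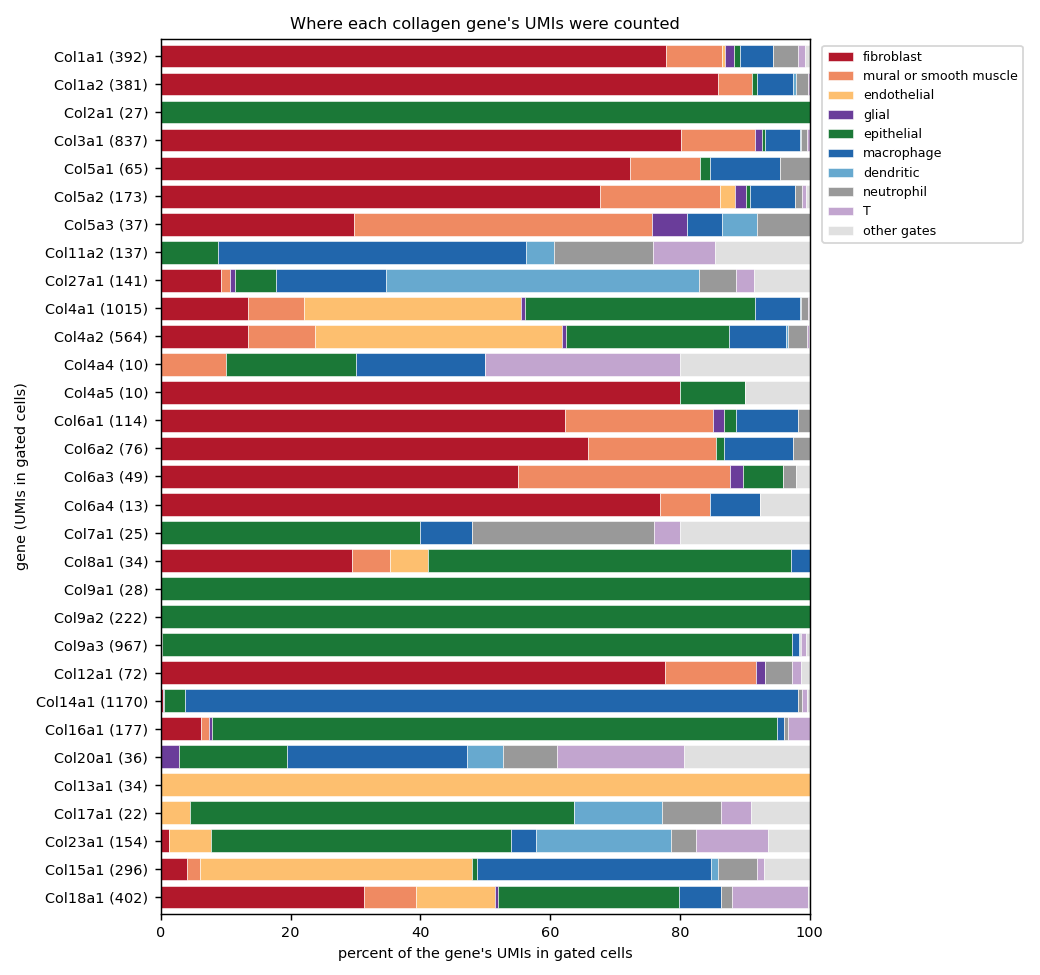
Percent of the assigned UMIs of each collagen gene (rows, UMIs in parentheses) that were counted in each cell type (colours, the 7 remaining types pooled as other). Fibroblasts hold most UMIs of Col1a1, Col1a2, Col3a1, Col5a1 and Col5a2, epithelial cells all of Col2a1, Col9a1 and Col9a2, macrophages 94.4% of Col14a1, and endothelial cells all of Col13a1.

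Endothelial cells stood out for 2 vessel-linked genes. Col15a1, a multiplexin of the basement membrane zone whose C-terminal piece is known to restrain vessel growth (chromosome 4, 47208161 to 47313167, plus strand), was present in 24 of 37 endothelial cells with 0 to 26 UMIs. It was at 677 CPM (563 to 807) in endothelial cells against 231 CPM (84.8 to 503) in mural cells, 2.93-fold (1.31 to 8.14), and 4.77-fold (2.63 to 9.48) above the 142 CPM of fibroblasts. The 2 endothelial libraries gave overlapping levels, 634 CPM (495 to 799) in library 1 and 746 CPM (559 to 976) in library 2. Col13a1, a transmembrane collagen of cell adhesion sites (chromosome 10, 61838236 to 61979108, minus strand), had 34 UMIs in 15 of the 37 endothelial cells and none in any other assigned cell, at 186 CPM (129 to 259). Depth limits that contrast for the small types, as 0 UMIs allow up to 35.5 CPM in fibroblasts and 116 CPM in mural cells. Its 2 libraries gave 125 CPM (68.3 to 210) and 282 CPM (172 to 435).

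Col23a1, another transmembrane collagen, had 10 UMIs in 4 endothelial cells (54.6 CPM, 26.2 to 100) against 2 in fibroblasts, 2.31-fold with an interval of 0.492 to 21.7. Those 10 were a small part of its 154 assigned UMIs. The single endothelial UMI of Col17a1, the hemidesmosome collagen, put it at 5.46 CPM there, and 13 of its 22 UMIs were in epithelial cells at 0.754 CPM; that main source rests on 1 UMI. The other multiplexin, Col18a1, from which endostatin is cut, was highest in fibroblasts at 1491 CPM (1242 to 1775) and mural cells at 1232 CPM (843 to 1740). Fibroblasts were 5.57-fold (3.98 to 7.92) above the 268 CPM of endothelial cells, where 11 of 37 cells had it. By UMIs it was divided, with 31.3% in fibroblasts, 27.9% in epithelial cells, 12.2% in endothelial cells and 11.7% in T cells.

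Among the large types, epithelial cells had a collagen set of their own, type IX with Col2a1, best known from cartilage. Col9a3 (chromosome 2, 180597790 to 180622189, plus strand) had 940 UMIs in 314 of 1615 epithelial cells, at 54.5 CPM (51.1 to 58.1), with at most 21 UMIs in a cell. That was 13.6-fold (2.43 to 536) above basophils, the next of the types with at least 10 cells, which had 1 UMI, and 135-fold (73.3 to 283) above macrophages. Epithelial cells held 97.2% of its UMIs. Of the 2 glial cells, 1 also had a UMI of Col9a3, in a type with 7124 UMIs of all genes. Col9a2 (chromosome 4, 121039385 to 121055322, plus strand) had 222 UMIs (12.9 CPM, 11.2 to 14.7), Col9a1 28 UMIs (1.62 CPM, 1.08 to 2.35) and Col2a1, the fibrillar chain that type IX decorates in cartilage, 27 UMIs (1.57 CPM, 1.03 to 2.28). No other assigned cell had a UMI of these 3. The small stromal types could not show such levels, since 0 UMIs allow up to 16.4 CPM in endothelial cells and 35.5 CPM in fibroblasts, so these calls hold against the large types. Of the type IX UMIs in epithelial cells Col9a3 made up 79.0% (76.6 to 81.3), Col9a2 18.7% (16.5 to 21.0) and Col9a1 2.35% (1.57 to 3.38). Col9a3 was at 45.3 CPM (39.5 to 51.6) in library 1 and 60.2 CPM (55.8 to 64.7) in library 2. A UMI of it was seen in 19.4% of epithelial cells (median depth 6625), 0.549% of macrophages (median 12340) and 0.317% of T cells; after thinning the shares were 3.66% of 1448 epithelial cells (167 left out), 0.0563% of 1776 macrophages and 0.0804% of 2488 T cells.

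Type IX genes were concentrated in epithelial cells that also had Wnt target RNA, a list of 8 genes (Axin2, Lgr5, Ascl2, Nkd1, Notum, Sp5, Wif1 and Znrf3) chosen after levels were seen and used for description only. In cells with UMIs of 0, 1 to 2 and 3 or more of the 8 (515, 360 and 740 cells), Col9a3 was at 0.825, 4.21 and 77.4 CPM (72.5 to 82.5 in the last). Col9a2 was at 0.825, 1.75 and 18.0 CPM, with 0, 2.91 and 16.5 CPM in library 1 and 1.71, 1.23 and 18.6 CPM in library 2. Col4a1 was at 7.84, 10.2 and 26.2 CPM, but the libraries differed: library 1 had 3.85, 12.6 and 9.31 CPM and library 2 had 11.1, 9.81 and 31.2 CPM. Col4a2 stood at 4.13, 12.3 and 8.10 CPM and Col18a1 at 8.67, 8.42 and 5.60 CPM, neither in the order of Col9a3. Median depth also differed, at 1920, 3605 and 14840.5 UMIs, and its part in the order was not tested. In cells with 3 or more, library 1 had 77.7 CPM of Col9a3 (100 cells) and library 2 had 77.5 CPM (634 cells). The genes whose per-cell levels were most like those of Col9a3, by the lower of the Pearson correlations over the 369 and 1169 epithelial cells of libraries 1 and 2, were Vim (0.57 and 0.47), Spock2 (0.63 and 0.45), Notum (0.68 and 0.44), Wif1 (0.62 and 0.42), Fxyd6 (0.46 and 0.40) and Nkd1 (0.51 and 0.40). The cells of a library share its depth and preparation.

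For Col16a1, a fibril-associated chain, the highest level and most of the UMIs lay in different types. Epithelial cells held 154 of its 177 UMIs (87.0%) at 8.93 CPM (7.58 to 10.5), 22.3-fold (10.02 to 61.7) above T cells, the next of the types with at least 20 cells, while the 11 UMIs in 6 fibroblasts gave 130 CPM (65.0 to 233), 14.6-fold (7.13 to 26.8) above epithelial cells. Col7a1, the anchoring fibril of the epithelial junction, had 10 of 25 UMIs in epithelial cells, at 0.580 CPM (0.278 to 1.07), and 7 in neutrophils, at 0.662 CPM (0.266 to 1.36).

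**Figure D5:**
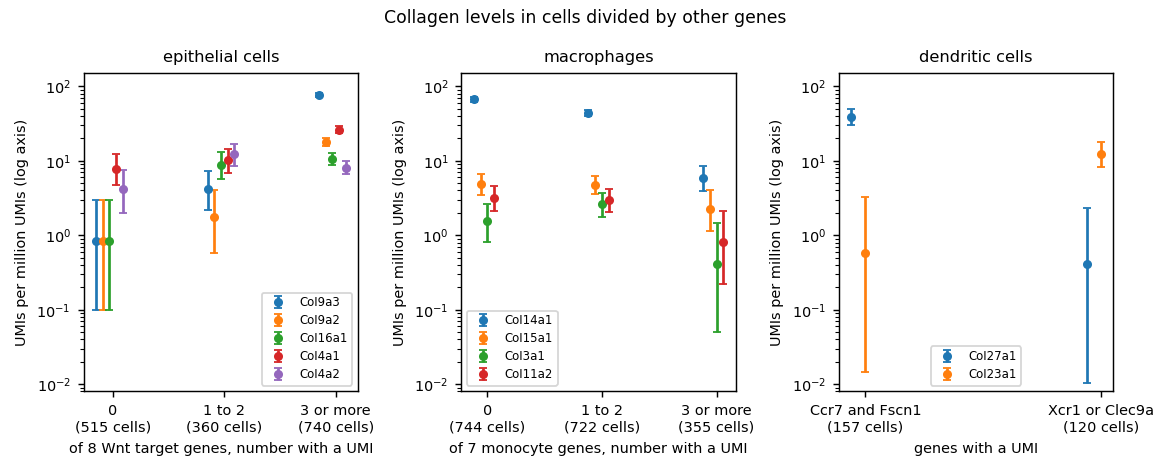
Levels (CPM, log axis, exact 95% Poisson intervals) of collagen genes in epithelial cells and macrophages divided by how many of 8 Wnt target or 7 monocyte genes had a UMI, and in dendritic cells divided by marker genes, with cell numbers under each group and points left out at 0. Col9a3 and Col9a2 are highest in epithelial cells with 3 or more Wnt targets, Col14a1 lowest in macrophages with 3 or more monocyte genes, and Col27a1 and Col23a1 lie in different dendritic cells.

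Macrophages carried 1 collagen gene at a level found in no other large type. Col14a1, a fibril-associated chain that binds type I fibrils (chromosome 15, 55307750 to 55520803, plus strand), had 1105 UMIs in 516 of 1821 macrophages (28.3%), at 44.5 CPM (41.9 to 47.2), with 3 or more UMIs in 136 cells and at most 19. In library 3 its level was 46.0 CPM (41.2 to 51.3) in macrophages, against 0.256 in T cells and 0.364 in neutrophils. In library 4 it was 43.98 CPM (40.9 to 47.2) in macrophages, against 0.851 in T cells and 0.978 in neutrophils. The 14 macrophages of libraries 1 and 2 had none, which with 4 and 10 cells allows up to 207 and 87.9 CPM at the upper end of the interval. Over all libraries macrophages were 58.7-fold (29.7 to 136) above neutrophils and 19.7-fold (14.3 to 27.8) above epithelial cells. Fibroblasts had 4 UMIs in 2 cells, 3 of them in 1, at 47.3 CPM (12.9 to 121), so fibroblasts and macrophages could not be ordered (1.06-fold, 0.290 to 2.73), although macrophages held 94.4% of the UMIs and fibroblasts 0.342%. The interval covers counting error only, and after thinning the share of cells with a UMI was 3.77% in 1776 macrophages, 0.0402% in 2488 T cells and 0.0389% in 2570 neutrophils.

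In macrophages with UMIs of 0, 1 to 2 and 3 or more of 7 genes of recent monocytes (Ly6c2, Plac8, Ccr2, Chil3, Vcan, F13a1 and Hp, also chosen after levels were seen; 744, 722 and 355 cells), Col14a1 was at 66.9 (61.5 to 72.6), 44.3 (40.5 to 48.3) and 5.96 CPM (3.99 to 8.56). Median depths were 9803, 14494 and 11958 UMIs, and the part of depth in this order was not tested. Library 3 gave 62.2, 44.4 and 9.10 CPM and library 4 gave 69.3, 44.4 and 5.17 CPM, the same order. The genes whose levels were most like those of Col14a1 across the 467 and 1340 macrophages of libraries 3 and 4 included Zmynd15 (0.33 and 0.37), Olfml3 (0.31 and 0.33), Cd63 (0.34 and 0.31), C1qc (0.33 and 0.31) and Pmepa1 (0.31 and 0.30), all weak correlations.

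Col15a1 was the next macrophage collagen, with 107 UMIs in 96 cells at 4.31 CPM (3.53 to 5.20). That was 2.53-fold (1.53 to 4.43) above neutrophils, 21.5-fold (7.16 to 106) above T cells and 37.1-fold (10.0 to 310) above epithelial cells, yet far under the 677 CPM of endothelial cells. It was at 5.41 CPM (3.85 to 7.39) in library 3 and 3.81 CPM (2.95 to 4.84) in library 4. No macrophage held more than 3 of its UMIs.

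Dendritic cells had 2 collagens in separate subsets. Col27a1, a fibrillar chain first known from cartilage, had 68 UMIs in 47 of 311 dendritic cells, at 14.9 CPM (11.5 to 18.8), 8.73-fold (4.69 to 17.7) above B cells and 15.4-fold (9.54 to 25.6) above macrophages. Of these 67 lay in the 157 cells with both Ccr7 and Fscn1, markers of migratory dendritic cells, at 38.9 CPM (30.1 to 49.4), and 1 in the 120 cells with Xcr1 or Clec9a, markers of cross-presenting cDC1 cells, at 0.412 CPM (0.0104 to 2.29). Col23a1 ran opposite, with 1 UMI in the cells with Ccr7 and Fscn1 (0.580 CPM, 0.0147 to 3.23) and 30 in those with Xcr1 or Clec9a (12.4 CPM, 8.33 to 17.6). Library 3 had 36 and library 4 had 32 of the Col27a1 UMIs, at 19.0 CPM (13.3 to 26.3) and 12.1 CPM (8.27 to 17.1). Fibroblasts were above dendritic cells for Col27a1, with 13 UMIs in 5 cells at 154 CPM (81.9 to 263), 10.3-fold (5.24 to 18.9). For Col23a1, endothelial cells were above dendritic cells, 7.81-fold (3.42 to 16.3), and dendritic cells held 32 of its 154 assigned UMIs. These subsets were chosen after levels were seen.

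T cells had Col18a1, 47 UMIs in 44 cells at 3.14 CPM (2.30 to 4.17), 22.1-fold (3.78 to 892) above B cells and 2.998-fold (1.82 to 5.04) above macrophages. The 530 T cells with a UMI of Foxp3, the factor of regulatory T cells, held 35 of the 47, at 10.1 CPM (7.06 to 14.1), against 1.04 CPM (0.538 to 1.82) in the 1993 without; median depths were 4816 and 5031 UMIs. Col18a1 of T cells was at 1.67 CPM (0.888 to 2.85) in library 3 and 4.68 CPM (3.22 to 6.57) in library 4.

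Col11a2 and Col20a1 were spread thinly over leukocytes. Col11a2 had 65 UMIs in macrophages (2.62 CPM, 2.02 to 3.33), 21 in neutrophils (1.99, 1.23 to 3.04), 13 in T cells (0.868), 11 in B cells (1.56) and 12 in epithelial cells (0.696), and none in fibroblasts, mural or endothelial cells. Macrophages were 3.76-fold (2.01 to 7.65) above epithelial cells. The next gene upstream on its strand, Rxrb, lies 1038 bases away, and the part of its reads in these counts was not tested. Col20a1 lay between 0.282 and 0.467 CPM in plasma, neutrophil, epithelial, macrophage, B, dendritic and T cells, with overlapping intervals, and 1 UMI lay in a glial cell.

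The genes that fold, modify, trim and bind collagen were looked at in 3 lists, with types of at least 10 cells. Of 20 enzymes and chaperones, 18 had at least 10 UMIs, and 3 had fibroblasts (16.7%, against 4.92% of all genes), 1 endothelial (5.56%, against 3.81%) and 1 mural cells (5.56%, against 5.8%) as main source. Of 14 processing and cross-linking genes, 11 were tested, and 2 had fibroblasts (18.2%, against 4.92%) and 1 each (9.09%) endothelial (against 3.81%), mural (5.8%), epithelial (9.27%) and NK cells (1.36%). Of 12 receptors and uptake genes, 10 were tested, and 2 each (20.0%) had fibroblasts (against 4.92%) and mural cells (5.8%), and 1 each (10.0%) macrophages (against 1.33%) and plasmacytoid dendritic cells (1.83%). Each count is of 3 genes or fewer, and those in mural and epithelial cells of the first 2 lists are near the share of all genes. The 3 fibroblast calls among enzymes and chaperones rest on 15, 4 and 1 UMIs. None of these 3, and neither of the 2 among receptors and uptake genes, had a ratio with an interval above 1. In fibroblasts the 4 with most UMIs were Loxl1, a cross-linking lysyl oxidase, at 320 CPM (27 UMIs), Ctsk, a collagen-cutting cathepsin, at 237 CPM (20), Bmp1, the procollagen C-proteinase, and P3h3, a prolyl hydroxylase, both at 178 CPM (15). Of these ratios over the next type only that of Bmp1 had an interval above 1, 3.25-fold (1.37 to 8.09) over endothelial cells.

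In mural cells Itga1, a collagen-binding integrin chain, was at 1271 CPM, 2.62-fold (1.60 to 4.25) above the 485 CPM of fibroblasts, and the others were Adamts2, the procollagen N-proteinase, P3h2 and Itga10, with 5, 4 and 3 UMIs. Endothelial cells had Tll1, a tolloid proteinase (11 UMIs, 60.1 CPM), and P4ha2, a prolyl hydroxylase subunit (8 UMIs, 43.7 CPM). Macrophages had Mrc1, a receptor that takes up collagen fragments, at 344 CPM, 27.8-fold (23.4 to 33.3) above neutrophils. Plasmacytoid dendritic cells had Lair1, an inhibitory collagen receptor, at 586 CPM, 2.44-fold (2.24 to 2.65) above macrophages. Epithelial cells had Pcolce2 from 18 UMIs and NK cells Adamts14 from 25. The intervals of the ratios of P4ha2 (0.495 to 164), Adamts2 (0.749 to 14.1), Pcolce2 (from 0.0215) and Adamts14 (0.728 to 182) included 1. A further pair of genes was picked after their values were seen: Serpinh1, the collagen chaperone HSP47, at 1467 CPM in fibroblasts against 924 in mural cells, 1.59-fold (1.02 to 2.57), and Sparc, a collagen-binding matrix protein, at 4852 CPM in fibroblasts against 4160 in mural cells, 1.17-fold (0.941 to 1.46). Neither reached 2-fold.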

How the data were processed

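The authors deposited UMI counts, not normalized, for each gene in each barcode, from 10x 3′ V3 libraries. Per the submitters' processing notes they used Cell Ranger 3.0.2 and mm10; which annotation release is not stated in these sources. The matrix holds 31053 genes, 18026 barcodes and 129529250 UMIs (9246770, 17158831, 37642375 and 65481274 in libraries 1 to 4). Barcodes were kept with at least 500 UMIs, 200 genes and at most 20% mitochondrial UMIs, which removed 59.0, 56.3, 8.75 and 4.45% of the 4 libraries. A kept barcode joined the type of whose 8 markers it had at least 3, and at least 2 more than of any other list (127 of 128 markers were in the matrix); 1154 barcodes had too few markers and 1656 had lists too close. No doublet caller was run, so barcodes holding more than 1 cell were left out only where 2 lists were close. Counts were summed per type and divided by the type's UMIs. Ratios carry exact conditional binomial intervals. Main sources needed at least 10 UMIs, and types with fewer than 20 cells were excluded, or fewer than 10 in the second set. Named were all members with at least 10 UMIs and, of the 3 lists, the 4 genes per type with most UMIs among those called there. The limit of 0 counts is 3 counts. The main-source step was tested on simulated counts. A gene among those most like Col14a1 is not reported here. Genes, lists and markers were chosen with earlier results of these data known. The alternatives tried were other gate limits, mitochondrial limits, level measures, thinning to 1000 UMIs, and leaving out each library, the top cell per gene and type, and the deepest fibroblast. Gene positions come from GENCODE M21 (GRCm38, as mm10) and promoters from RefSeq. Python 3.11.15, numpy 2.4.6, scipy 1.17.1, pandas 2.3.3 and matplotlib 3.10.9 were used.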

Additional observations from a re-analysis of the deposited data

Results flagged for a closer look

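Barcodes outside the 16 types also held collagen UMIs. The barcodes that failed the cell filter held 920 collagen UMIs, 116 CPM, against 80.0 CPM in assigned cells; by library they had 103, 74.8, 126 and 465 CPM. Kept barcodes that joined no type held 1165 collagen UMIs, 46.3 CPM, with 762 and 846 CPM in libraries 1 and 2 (55 and 181 barcodes) and 33.1 and 27.2 CPM in libraries 3 and 4 (768 and 1806 barcodes). The one with most Col3a1 was in library 1, with 54 Col3a1, 29 Col1a1 and 13 Col1a2 UMIs among 7264, and had 5 fibroblast and 4 mural markers. Its place among the types was not tested.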

How the results depend on the processing

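No paired analysis was possible because no source pairs libraries with samples and no result comes from a test between groups. Of the 6 genes with fibroblasts as main source (at least 10 cells per type), the number was 16 with at least 4 markers per cell, 16 with at most 10% mitochondrial UMIs, 0 with a margin of 3 markers, 0 without library 1 and 0 without library 2, settings under which fibroblasts or mural cells drop below 10 cells and leave the comparison. It was 14 by mean UMIs per cell, 10 at 1.5-fold and 2 at 4-fold. After thinning to 1000 UMIs it was 13. Thinning left out the mural cells with 660 and 597 UMIs, so mural cells fell under 10 cells and left every comparison at that limit. The 4 endothelial genes became 10 with a margin of 3 markers, 8 without library 1 and 9 without library 2, 2 by mean of per-cell CPM, by mean UMIs per cell, after thinning, without the top cell or with the interval above 1, and 1 at 4-fold. Macrophages, with 0, had 4 with a margin of 3 markers, 3 without library 1, 2 without library 2 and 1 without the top cell. The 4 epithelial genes became 1 with the interval above 1, and the total of 17 became 10 at 4-fold and 9 with the interval. With at least 20 cells per type, the total of 23 became 15 without library 2 and 13 with the interval. The 10 endothelial genes became 0 without library 2, 0 with at least 50 cells per type, 6 after thinning and 4 with at least 10 cells per type. The 5 epithelial genes became 3 after thinning, 9 with at least 50 cells and 2 with the interval. The 3 macrophage genes became 1 without library 4, 5 by mean UMIs per cell, 5 after thinning, 1 at 4-fold and 0 with at least 10 cells. Where no cell number is given as the reason, the cause was not tested. Of 22 levels followed, 13 moved beyond their interval after thinning and 11 by mean of per-cell CPM.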
